A study of Mus musculus with 9 samples.

Results

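The genes described here encode the Wnt ligands, the Frizzled receptors, their co-receptors and inhibitors, and the first steps inside the cell that follow from the ligand. They were chosen by name: a symbol of Wnt, Fzd, Sfrp or Dkk followed by a number, together with Lrp5, Lrp6, Wif1, Axin1, Axin2, Lef1, Tcf7, Tcf7l1, Tcf7l2, Ctnnb1, Porcn and Wls. This gave 49 genes of the 19938 genes with a named row. Tcf7 had no row with a single symbol and was not analysed here, and the name rule also took in Fzd10os, a noncoding transcript from the strand opposite Fzd10. RNA was compared between 3 groups of 3 samples each, 1 Affymetrix Mouse Gene 1.0 ST array per sample: dedifferentiated mouse cardiac fibroblasts, which the series title describes as adult cells taken back by a protein-based method; C57 ES cells (embryonic stem cells); and cardiac fibroblasts of adult mice. All samples carry the strain label C57BL/6. The labels give neither an animal's age nor a time after treatment, nor do they tell if replicates were separate animals or separate dishes. The p-values therefore describe sample-to-sample scatter that could be purely technical.

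Wnt proteins are secreted lipid-modified ligands. Porcn, an enzyme of the endoplasmic reticulum, attaches the lipid, and Wls carries the ligand to the cell surface, where it binds a Frizzled receptor. With the co-receptors Lrp5 and Lrp6 the signal stops the Axin-containing complex from destroying beta-catenin (Ctnnb1), which then works with DNA-binding proteins of the Lef1 and Tcf family. Sfrp proteins and Wif1 bind the ligands outside the cell, and Dkk1 blocks the co-receptors. In mouse ES cells Tcf7l1 acts mainly as a repressor of pluripotency genes, and in the adult heart Wnt signalling is known mostly from repair and fibrosis.

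Values are log2 expression values made with RMA, so 1 unit is a doubling and levels are not compared between genes. The array medians lay between 4.65 and 4.86, and arrays of the same group correlated at 0.9875 or more over all rows. Dedifferentiated arrays correlated at 0.9818 to 0.9863 with ES arrays and at 0.9151 to 0.9234 with fibroblast arrays. In marker lists, 9 of 9 ES cell markers were higher and 12 of 12 fibroblast markers lower in dedifferentiated cells than in fibroblasts. The same counts held for ES cells against fibroblasts. These markers set both groups apart from fibroblasts and do not show which cells the dedifferentiated cells came from. Pou5f1 averaged 11.21 in dedifferentiated cells, 11.22 in ES cells and 3.39 in fibroblasts, and Col1a1 averaged 7.13, 6.82 and 12.61 in the same groups. The 8 cardiomyocyte markers averaged 4.52 to 4.55 on the dedifferentiated arrays, 4.61 to 4.66 on the ES arrays and 4.48 to 4.64 on the fibroblast arrays. Macrophage and leukocyte markers, 8 genes, averaged 4.29 to 4.32 on the dedifferentiated arrays, 4.43 to 4.52 on the ES arrays and 5.8 to 6 on the fibroblast arrays, and their part in the differences from fibroblasts was not tested. Xist, transcribed from an inactive X chromosome, was at 3.25 in dedifferentiated cells, 3.15 in ES cells and 7.31 in fibroblasts. The Y-linked Eif2s3y was at 8.09, 7.76 and 3.55 in the same groups. Both comparisons with fibroblasts thus also set apart cells that differ in sex-linked transcripts. In both genes the dedifferentiated cells were near the ES cells and far from the fibroblasts assayed. Their descent from these fibroblasts was not tested. Fell and rose below mean lower and higher than in fibroblasts, not a change followed in the same cells.

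The 49 genes separated into a few large falls, a few smaller rises and many genes with little difference. A gene was called at a Benjamini-Hochberg adjusted p under 0.05 over all genes (limma, all 9 arrays in 1 fit) and a difference of at least 1 log2 unit. In dedifferentiated cells against fibroblasts 10 of the 49 were lower, where 10.1% of all genes were called lower, and 4 were higher, where 8.79% of all genes were called higher. In ES cells against fibroblasts 10 were lower (all genes 10.4%) and 1 was higher (all genes 8.85%). Without the minimum size, 22 of the 49 passed the adjusted p in dedifferentiated cells (all genes 47.4%) and 23 in ES cells (all genes 49%). The median log2 difference was -0.04 for the 49 genes and 0.01 for all genes in dedifferentiated cells, and 0.01 and 0.02 in ES cells. Between dedifferentiated and ES cells limma called 0 of the 49, where 1.55% of all genes were called in either direction; 18 of the 49 had an unadjusted p under 0.05, where 30.5% of all genes did. The group means of 24 of the 49 genes (49%) lay within 0.5 log2 of each other, against 57.7% of all genes. Both comparisons with fibroblasts use the same 3 fibroblast arrays, and in RNA of whole cultures fewer cells of a type and less RNA per cell cannot be told apart.

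**Figure D1:**
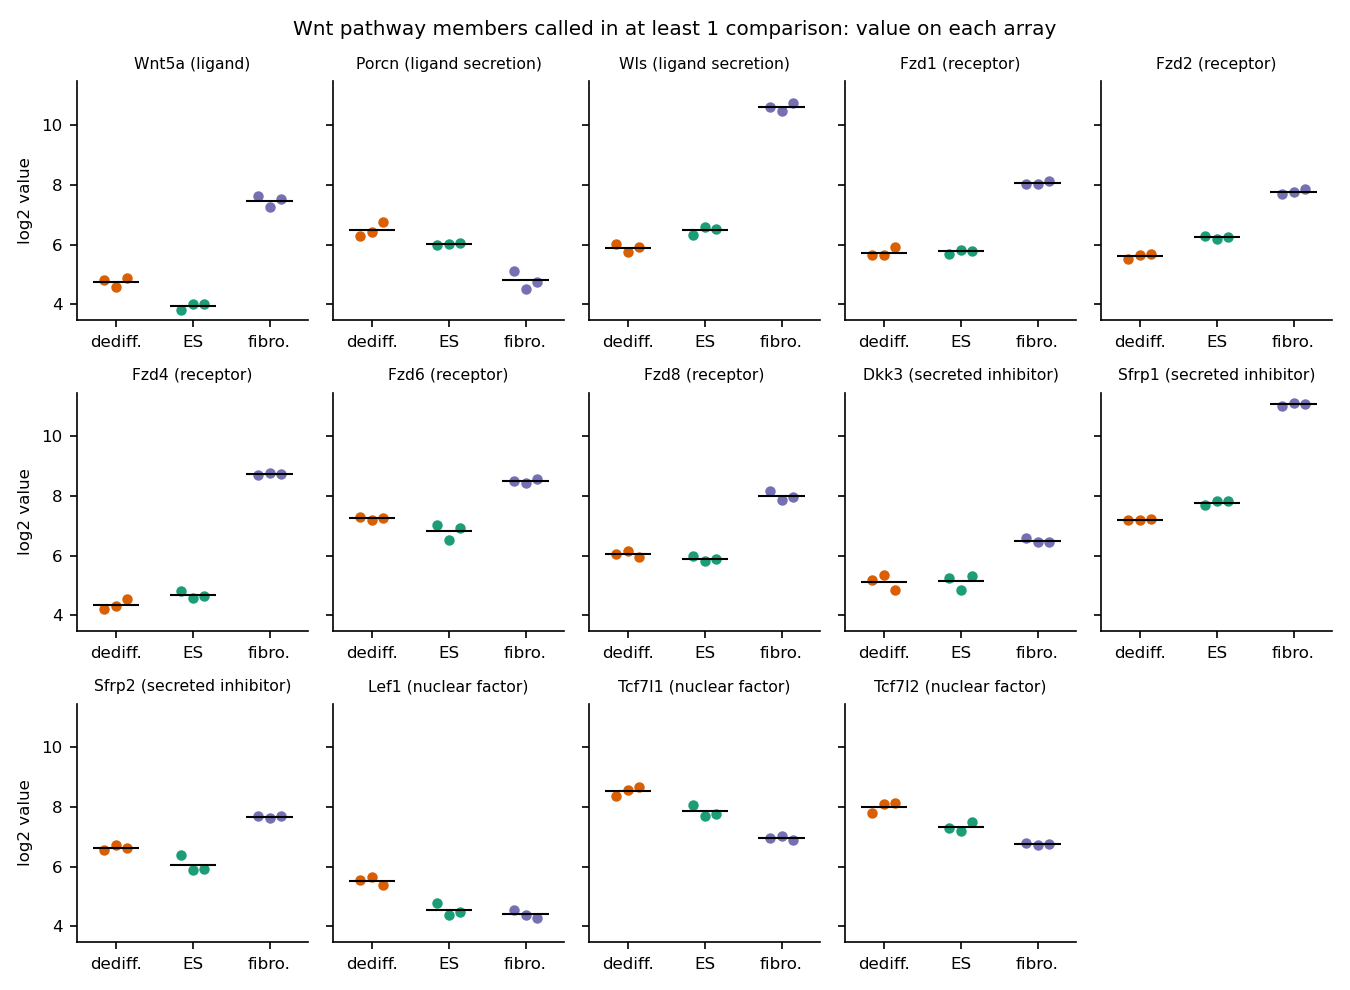
Log2 value on each of the 9 arrays (points) and group mean (line) for the 14 Wnt pathway genes called in at least 1 comparison, with dedifferentiated cells left, ES cells in the middle and fibroblasts right. Wls, Fzd4, Sfrp1 and Wnt5a show the widest gaps below the fibroblasts in both other groups, and Porcn, Lef1, Tcf7l1 and Tcf7l2 are highest in the dedifferentiated cells.

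The promoters of called genes that fell and of called genes that rose are shown to let the sequence be set beside the values given further on. RefSeq promoter windows (build GRCm38.p6) were at hand for 32 of the 49 genes and for 7 of the 14 called genes. The first 4 sequences are the 250 bases before the annotated start of Wls and Fzd4, which had large falls, and of Tcf7l1 and Lef1, which rose in dedifferentiated cells; capitals mark each CpG, the dinucleotide at which DNA methylation occurs. The last is that of Sfrp2, lower in dedifferentiated and ES cells than in fibroblasts, with an octamer motif, the sequence bound by POU factors such as Pou5f1, in capitals. They lie at chr3:159839400-159839649 (plus strand) for Wls, chr7:89404116-89404365 (plus) for Fzd4, chr6:72789046-72789295 (minus) for Tcf7l1, chr3:131110047-131110296 (plus) for Lef1 and chr3:83766071-83766320 (plus) for Sfrp2.
Wls: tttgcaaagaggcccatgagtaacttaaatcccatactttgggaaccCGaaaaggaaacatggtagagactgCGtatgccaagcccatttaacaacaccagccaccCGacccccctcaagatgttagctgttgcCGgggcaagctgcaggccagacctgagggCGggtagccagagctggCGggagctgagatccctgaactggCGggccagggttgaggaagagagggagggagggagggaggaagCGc
Fzd4: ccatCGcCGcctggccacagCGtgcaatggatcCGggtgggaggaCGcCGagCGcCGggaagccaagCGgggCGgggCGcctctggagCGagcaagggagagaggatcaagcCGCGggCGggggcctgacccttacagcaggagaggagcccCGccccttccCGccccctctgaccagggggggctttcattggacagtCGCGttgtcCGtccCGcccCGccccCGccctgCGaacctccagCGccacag
Tcf7l1: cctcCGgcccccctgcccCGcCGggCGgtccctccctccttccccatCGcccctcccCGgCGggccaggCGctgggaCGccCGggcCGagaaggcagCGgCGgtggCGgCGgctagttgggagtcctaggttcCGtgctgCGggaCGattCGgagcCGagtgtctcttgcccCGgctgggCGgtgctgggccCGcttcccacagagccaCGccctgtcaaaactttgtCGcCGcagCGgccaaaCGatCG
Lef1: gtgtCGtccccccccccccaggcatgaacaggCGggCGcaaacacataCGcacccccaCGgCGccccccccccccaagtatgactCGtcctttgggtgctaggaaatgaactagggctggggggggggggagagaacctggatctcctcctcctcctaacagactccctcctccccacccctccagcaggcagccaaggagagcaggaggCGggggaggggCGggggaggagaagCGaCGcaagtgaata
Sfrp2: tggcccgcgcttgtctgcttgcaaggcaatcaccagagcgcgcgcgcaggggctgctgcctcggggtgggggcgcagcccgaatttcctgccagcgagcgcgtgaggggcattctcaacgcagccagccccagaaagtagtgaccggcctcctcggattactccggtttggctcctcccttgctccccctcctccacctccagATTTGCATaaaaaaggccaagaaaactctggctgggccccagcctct

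CpG counts are given as a description, and their relation to the direction of the difference was not tested. Fzd4, which fell, had 25 CpGs and Tcf7l1, which rose, had 29, more than 89.3% and 93.2% of all 32851 windows. Wls, which fell, had 8 and Lef1, which rose, had 11 in the window shown, more than 57% and 64.4% of all windows. Further windows of Lef1 held 14, 6 and 5. Of the other called genes with a window, Sfrp2 and Fzd1, which fell, had 16 and 12. Tcf7l2, which rose, had windows with 30 and with 7. Over the 40 windows of Wnt pathway genes the median was 21.5 CpGs, against 6 over all windows. Of the Tcf/Lef core motif only the forms CTTTGAA and CTTTGAT were searched, on both strands. These forms occurred in 0 of the 11 windows of called genes and in 3 of the 40 windows of all these genes. At least 1 of them was held by 7.48% of all windows. The 3 were windows of Dkk1, Wnt5b and Wnt11. The octamer ATGCAAAT, searched on both strands and not overlapping the other motifs, lay on the opposite strand of Sfrp2 starting at position -47 from the gene's start. No other of the 40 windows held it, and 1.6% of all windows did. A match of letters is a description and shows no binding, and the absence of a motif in 250 bases says nothing about the rest of a gene.

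Among the 19 ligands, Wnt5a alone was called. Wnt5a, a ligand known mostly for signalling without beta-catenin, was at 4.81, 4.59 and 4.88 on the dedifferentiated arrays, 3.82, 4 and 3.99 on the ES arrays, and 7.62, 7.27 and 7.53 on the fibroblast arrays. The 3 groups did not overlap, with fibroblasts highest and ES cells lowest. It fell by 2.71 log2 units in dedifferentiated cells (6.54-fold, 95% interval -2.95 to -2.47, limma adjusted p = 2.1e-09) and fell by 3.53 in ES cells (11.6-fold, -3.78 to -3.29, adjusted p = 2e-10), both against fibroblasts.

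Of the other ligands, Wnt7b, Wnt2 and Wnt7a passed the adjusted p in at least 1 comparison with differences below the required size. Wnt7b, a ligand of the beta-catenin branch, averaged 6.21 ± 0.14 in dedifferentiated cells, 6.31 ± 0.077 in ES cells and 5.42 ± 0.17 in fibroblasts (SD, n = 3 each), and the arrays of dedifferentiated and ES cells lay above the fibroblast arrays. Its difference was 0.78 (0.56 to 1.01) in dedifferentiated cells and 0.89 (0.66 to 1.12) in ES cells. Wnt2 differed from fibroblasts by -0.46 (adjusted p = 0.038) in dedifferentiated cells and by -0.63 (adjusted p = 0.0064) in ES cells. Wnt7a was at 4.44, 4.21 and 4.47 on the dedifferentiated arrays, 5.35, 4.7 and 5.07 on the ES arrays, and 4.4, 4.62 and 4.22 on the fibroblast arrays, so ES cells stood above the other groups. It differed by 0.62 between ES cells and fibroblasts (limma adjusted p = 0.0059) and by -0.66 between dedifferentiated and ES cells (adjusted p = 0.011).

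The remaining 15 ligands, Wnt1, Wnt2b, Wnt3, Wnt3a, Wnt4, Wnt5b, Wnt6, Wnt8a, Wnt8b, Wnt9a, Wnt9b, Wnt10a, Wnt10b, Wnt11 and Wnt16, did not pass the adjusted p in any comparison. Their group means lay within 0.07 (Wnt1) to 0.34 (Wnt2b) log2 of each other. The width for Wnt2b came from a value of 5.11 on ES array 1, against 4.05 and 4.13 on the other ES arrays. ES array 1 also had the highest of the 9 values for Wnt3a, Wnt4, Wnt5b, Wnt6, Wnt9a, Wnt9b and, above, Wnt7a. For the other ligands it did not. Wnt3, a ligand needed for the mouse primitive streak, averaged 4.56 in dedifferentiated cells, 4.65 in ES cells and 4.53 in fibroblasts. Wnt4 had 2 rows; the row with the lower mean differed from fibroblasts by 0.76 in dedifferentiated and 0.62 in ES cells, against 0.12 and 0.15 for the row used. Wnt1 had an exactly equal value on 5 of the 9 arrays and Wnt8b on 4, so their small spreads are no measure of precision. The ligand genes include 4 pairs of chromosomal neighbours (Wnt6 and Wnt10a, Wnt3a and Wnt9a, Wnt9b and Wnt3, Wnt10b and Wnt1, by the gene order of GRCm38.p6), and no gene of these pairs passed the adjusted p in any of the comparisons.

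The 2 genes for making an active ligand went opposite ways. Wls, the carrier that brings Wnt proteins to the cell surface, was at 6.01, 5.74 and 5.93 on the dedifferentiated arrays, 6.31, 6.6 and 6.54 on the ES arrays, and 10.61, 10.48 and 10.74 on the fibroblast arrays. It had the widest difference of the 49 genes in both comparisons with fibroblasts: it fell by 4.71 in dedifferentiated cells (26.2-fold, 95% interval -4.95 to -4.48, limma adjusted p = 1.8e-11) and fell by 4.12 in ES cells (17.4-fold, -4.36 to -3.89, adjusted p = 4.6e-11). Its promoter sequence is the first of those shown above.

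Porcn, the acyltransferase, rose. Its values were 6.28, 6.42 and 6.75 on the dedifferentiated arrays, 5.98, 6.03 and 6.05 on the ES arrays, and 5.13, 4.51 and 4.76 on the fibroblast arrays, with no overlap between groups. The rise was 1.68 in dedifferentiated cells (3.21-fold, 1.34 to 2.02, limma adjusted p = 2e-06) and 1.22 in ES cells (2.33-fold, 0.88 to 1.56, adjusted p = 3.1e-05). Porcn lies on the X chromosome, and the part that the difference in sex-linked transcripts has in this rise was not tested.

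Of the 10 Frizzled receptors, 5 were lower in dedifferentiated cells than in fibroblasts and the other 5 were not called, where 10.1% of all genes were called lower, with a median difference of -0.6 log2. The same counts held in ES cells (all genes 10.4%), with a median of -0.88, and over all genes the medians were 0.01 and 0.02. Fzd4, which besides Wnt proteins binds norrin, fell furthest. It was at 4.21, 4.3 and 4.55 on the dedifferentiated arrays, 4.8, 4.57 and 4.65 on the ES arrays, and 8.7, 8.77 and 8.74 on the fibroblast arrays, a fall by 4.38 (20.9-fold, limma adjusted p = 1.7e-11) in dedifferentiated cells and by 4.06 (16.7-fold, adjusted p = 2.8e-11) in ES cells. Its fibroblast arrays were far above all others, and every dedifferentiated array lay below every ES array.

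Fzd1, Fzd2 and Fzd8 were lower by about 2 log2 units in dedifferentiated cells, and in ES cells Fzd2 was lower by less than Fzd1 and Fzd8. Fzd1 was at 5.64, 5.65 and 5.91 on the dedifferentiated arrays, 5.7, 5.82 and 5.8 on the ES arrays, and 8.05, 8.04 and 8.15 on the fibroblast arrays; dedifferentiated and ES cells overlapped, and the difference from fibroblasts was -2.35 and -2.31 (limma adjusted p = 1.2e-09 and 1.3e-09). Fzd8 was at 6.04, 6.15 and 5.97 on the dedifferentiated arrays, 5.98, 5.81 and 5.88 on the ES arrays, and 8.18, 7.87 and 7.98 on the fibroblast arrays, with differences of -1.96 and -2.12 (limma adjusted p = 8.2e-09 and 3.9e-09). Fzd2 kept the 3 groups apart: 5.52, 5.64 and 5.7 in dedifferentiated cells, 6.28, 6.2 and 6.27 in ES cells, and 7.7, 7.77 and 7.85 in fibroblasts. Its difference from fibroblasts was -2.16 (95% interval -2.33 to -1.98) in dedifferentiated cells and -1.52 (-1.7 to -1.35) in ES cells.

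Fzd6, a receptor known for planar polarity, was also lower in both groups than in fibroblasts. It was at 7.3, 7.21 and 7.26 on the dedifferentiated arrays, 7.04, 6.51 and 6.91 on the ES arrays, and 8.51, 8.43 and 8.58 on the fibroblast arrays. The ES cells were lowest, and the fall was 2.37-fold in dedifferentiated cells (limma adjusted p = 3.4e-06) and 3.22-fold in ES cells (adjusted p = 2.4e-07).

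The other 5 receptors stayed under the size of a call. Fzd7, a receptor known to be active in pluripotent cells, was at 9.09, 8.95 and 8.96 on the dedifferentiated arrays, 8.51, 8.46 and 8.55 on the ES arrays, and 8.28, 8.28 and 8.4 on the fibroblast arrays. Its values were highest in dedifferentiated cells, with a difference of 0.68 from fibroblasts (0.51 to 0.85, limma adjusted p = 1.1e-05) and of 0.19 between ES cells and fibroblasts (adjusted p = 0.058). Fzd5 differed by 0.24 (adjusted p = 0.083) in dedifferentiated cells and by 0.58 (adjusted p = 0.00059) in ES cells. Fzd9 had an exactly equal value on 4 of the 9 arrays, so its small spread is no measure of precision. Fzd3, Fzd9 and Fzd10 had group means within 0.28, 0.1 and 0.36 log2, and Fzd10os, next to Fzd10, within 0.09. No detection call tells whether such low values are above background.

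The co-receptors differed little. Lrp5 was at 7.34, 7.63 and 7.57 on the dedifferentiated arrays, 7.71, 7.65 and 7.63 on the ES arrays, and 8.07, 8.21 and 8.19 on the fibroblast arrays, below the fibroblasts by 1.56-fold and 1.41-fold. Lrp6 was at 8.16, 8.24 and 8.29 on the dedifferentiated arrays, 7.72, 7.84 and 8.09 on the ES arrays, and 8.49, 8.4 and 8.51 on the fibroblast arrays. Every dedifferentiated and ES array lay below the fibroblast arrays for both genes, but neither reached a difference of 1 log2 unit. The difference of Lrp6 in dedifferentiated cells was -0.23 (limma adjusted p = 0.072).

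**Figure D2:**
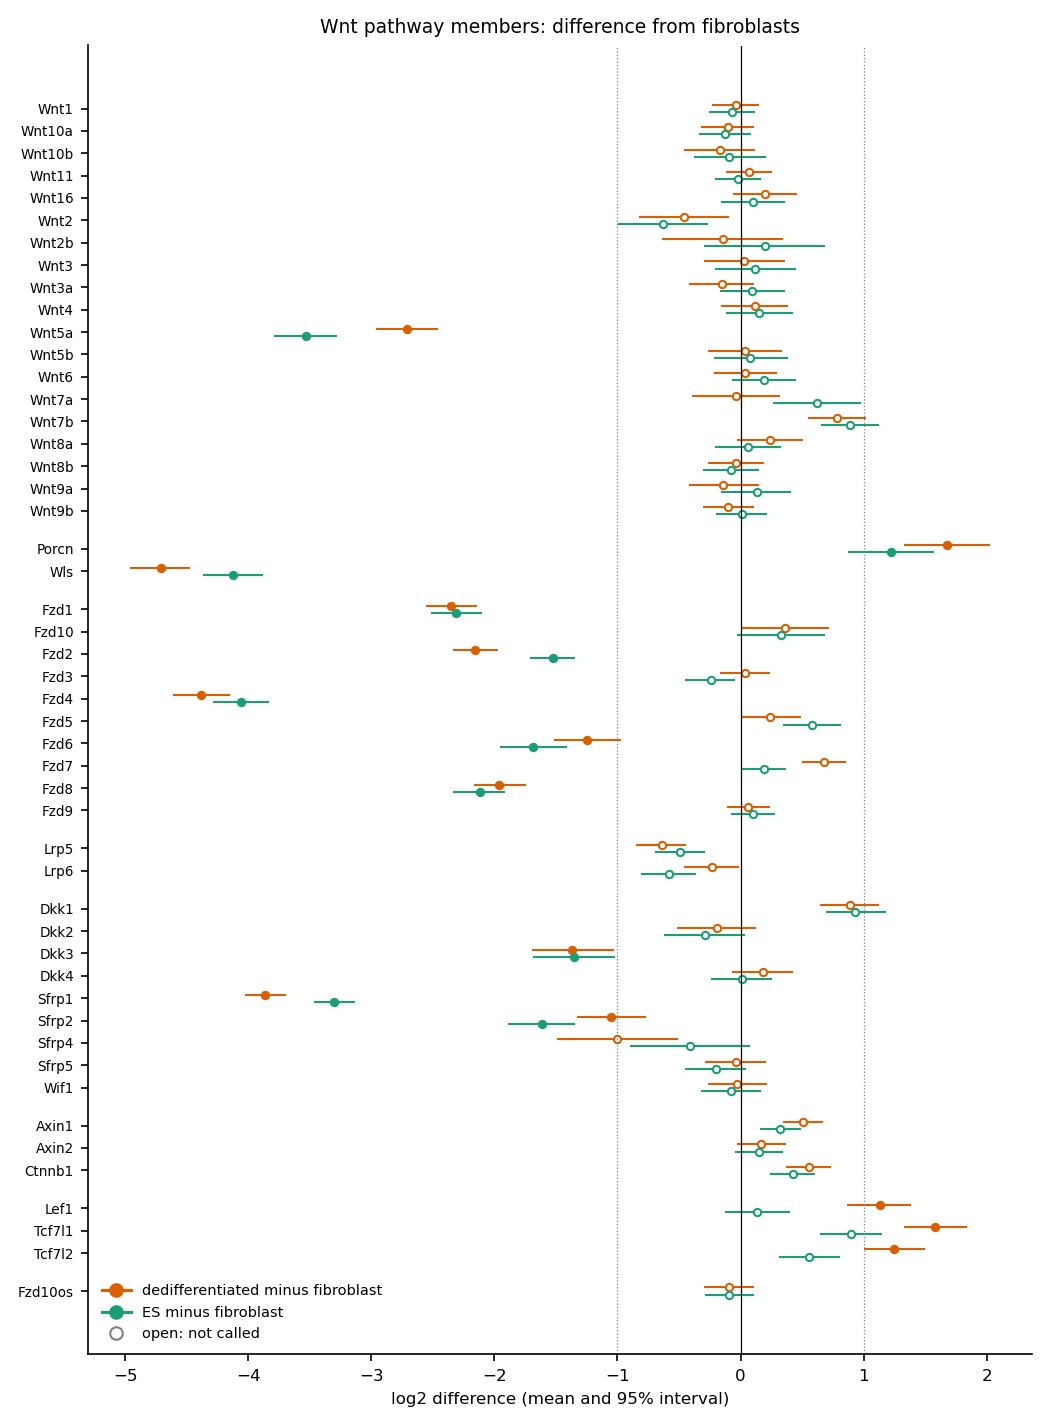
Log2 difference from fibroblasts with its 95% interval for the 49 genes, grouped by role (orange, dedifferentiated minus fibroblast; green, ES minus fibroblast; filled points were called, dotted lines mark 1 log2 unit). The falls of Wls, Fzd4, Sfrp1 and Wnt5a stand out, most ligands sit at 0, and the DNA-binding factors Lef1, Tcf7l1 and Tcf7l2 lie to the right with the dedifferentiated cells furthest.

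Of the 9 secreted inhibitors, 3 were lower in dedifferentiated cells than in fibroblasts and the other 6 were not called, where 10.1% of all genes were called lower. The same counts held in ES cells, where 10.4% of all genes were called lower. The median difference was -0.19 log2 in dedifferentiated and -0.29 in ES cells. Sfrp1, a decoy that binds Wnt proteins, was at 7.21, 7.19 and 7.24 on the dedifferentiated arrays, 7.69, 7.83 and 7.82 on the ES arrays, and 11.03, 11.11 and 11.08 on the fibroblast arrays. It fell by 3.86 in dedifferentiated cells (14.5-fold, 95% interval -4.02 to -3.7, limma adjusted p = 5.3e-12) and fell by 3.3 in ES cells (9.82-fold, -3.46 to -3.14, adjusted p = 1.3e-11). The 3 groups were apart, and dedifferentiated cells were lowest.

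Sfrp2, a related decoy whose upstream sequence with the octamer is shown above, ran in the other order: 6.55, 6.71 and 6.63 in dedifferentiated cells, 6.38, 5.88 and 5.92 in ES cells, and 7.71, 7.62 and 7.7 in fibroblasts. Its difference was -1.05 (-1.32 to -0.78) in dedifferentiated cells, close to the size required, and -1.61 (-1.88 to -1.35) in ES cells. Dkk3, a divergent Dkk protein whose part in Wnt signalling is less settled, was at 5.19, 5.36 and 4.84 in dedifferentiated cells, 5.26, 4.85 and 5.33 in ES cells, and 6.59, 6.45 and 6.46 in fibroblasts. It fell 2.58-fold and 2.55-fold, and dedifferentiated and ES cells overlapped.

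Dkk1, the co-receptor blocker, lay just under the size of a call in the other direction. It was at 5.6, 5.7 and 5.68 on the dedifferentiated arrays, 5.65, 5.67 and 5.8 on the ES arrays, and 4.96, 4.84 and 4.52 on the fibroblast arrays. Its difference was 0.89 (0.65 to 1.12) in dedifferentiated cells and 0.93 (0.7 to 1.17) in ES cells, and without fibroblast replicate 1 the difference in ES cells was 1.03 and was called. Sfrp4, an inhibitor of the same family as Sfrp1, was at 4.17, 4.12 and 3.79 in dedifferentiated cells, 4.45, 4.94 and 4.47 in ES cells, and 5.56, 4.64 and 4.87 in fibroblasts. Its difference in dedifferentiated cells was -1 after rounding and under the size of a call before it. With all arrays kept, it was called after a second quantile normalization (-1.1), median centring (-1.12) and array weights (-1.07). It was also called without fibroblast replicate 2 (-1.19) or 3 (-1.07) and without dedifferentiated replicate 1 (-1.07) or 2 (-1.05). Dkk2, Dkk4, Sfrp5 and Wif1 did not pass the adjusted p in any comparison, with array values between 3.49 and 4.42 and group means within 0.29 log2.

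Inside the cell, the genes of the relay stayed within 1 log2 unit. Ctnnb1, beta-catenin itself, was at 10.69, 10.66 and 10.63 on the dedifferentiated arrays, 10.43, 10.51 and 10.65 on the ES arrays, and 10.07, 10.06 and 10.17 on the fibroblast arrays. Axin1, the scaffold of the destruction complex, was at 7.23, 7.28 and 7.32 in dedifferentiated cells, 7.08, 7.11 and 7.1 in ES cells, and 6.84, 6.7 and 6.78 in fibroblasts. Both were above fibroblasts on every dedifferentiated and ES array: Ctnnb1 by 0.56 (limma adjusted p = 8e-05) and 0.43 (adjusted p = 0.00063), and Axin1 by 0.51 and 0.32.

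Axin2 is a second scaffold and a widely used target gene of beta-catenin signalling. It was at 5.5, 5.63 and 5.47 on the dedifferentiated arrays, 5.59, 5.47 and 5.47 on the ES arrays, and 5.47, 5.38 and 5.23 on the fibroblast arrays. The groups overlapped, and the difference from fibroblasts was 0.17 (95% interval -0.02 to 0.36) in dedifferentiated cells and 0.15 (-0.04 to 0.34) in ES cells; 4 of its 9 values were exactly equal.

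The 3 measured DNA-binding factors rose in dedifferentiated cells against fibroblasts, where 8.79% of all genes were called higher. Tcf7l1, the repressor, was at 8.38, 8.57 and 8.67 on the dedifferentiated arrays, 8.08, 7.7 and 7.77 on the ES arrays, and 6.95, 7.03 and 6.88 on the fibroblast arrays. Tcf7l2, which acts in both activation and repression, was at 7.81, 8.1 and 8.13 in dedifferentiated cells, 7.28, 7.18 and 7.51 in ES cells, and 6.79, 6.73 and 6.76 in fibroblasts. For both, dedifferentiated cells were highest, ES cells between and fibroblasts lowest, without overlap. Tcf7l1 was higher by 1.58 (2.99-fold, 1.34 to 1.83, limma adjusted p = 2.3e-07) in dedifferentiated cells and differed by 0.9 (0.65 to 1.14) in ES cells. Tcf7l2 was higher by 1.25 (2.38-fold, 1.01 to 1.49, adjusted p = 1.3e-06) in dedifferentiated cells and differed by 0.56 (0.32 to 0.8) in ES cells.

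Lef1, an activating partner of beta-catenin, set the dedifferentiated cells apart from both other groups. It was at 5.55, 5.64 and 5.39 on the dedifferentiated arrays, 4.77, 4.36 and 4.48 on the ES arrays, and 4.54, 4.39 and 4.28 on the fibroblast arrays, where ES cells and fibroblasts overlapped. It rose by 1.13 against fibroblasts (2.18-fold, 0.87 to 1.38, limma adjusted p = 6.2e-06), while ES cells differed from fibroblasts by 0.13 (-0.12 to 0.39).

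The direct comparison of dedifferentiated with ES cells gave smaller differences. The 95% interval stayed inside 1 log2 unit on either side of 0 for 45 of the 49 genes. Without a minimum size, 15 of the 49 passed an adjusted p of 0.05, where 21.3% of all genes passed. Of the 49, 9 were above ES cells (all genes 11.2%) and 6 below (all genes 10%). Lef1 had the largest difference, 0.99 (0.73 to 1.25, limma adjusted p = 0.00017), just under the size of a call. It was called without dedifferentiated replicate 3 (1.06) or ES replicate 1 (1.11). Wnt5a differed by 0.82 (0.58 to 1.07, adjusted p = 0.00037), and Tcf7l1 and Tcf7l2 by 0.69 each (adjusted p = 0.0013 and 0.00097). Sfrp2, Fzd7, Fzd6, Lrp6 and Fzd3 were above ES cells by 0.56, 0.49, 0.44, 0.35 and 0.28. In the other direction Wnt7a differed by -0.66, Fzd2 by -0.63, Wls by -0.59, Sfrp1 by -0.57, Fzd5 by -0.34 and Fzd4 by -0.32. Wls, Sfrp1, Fzd2 and Fzd4, all lower in ES cells than in fibroblasts, were thus lower still in dedifferentiated cells, while Wnt5a, Sfrp2 and Fzd6 lay between ES cells and fibroblasts. Porcn (0.46, adjusted p = 0.055) and Sfrp4 (-0.59, adjusted p = 0.082) missed the adjusted p.

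Some markers of other cells also differed in this comparison. The 12 fibroblast markers averaged 6.13 to 6.21 on the dedifferentiated arrays, 5.55 to 5.61 on the ES arrays and 10.94 to 11.03 on the fibroblast arrays, and 3 of 12 were called higher than in ES cells, where 1.01% of all genes were (Vim by 1.51, Pdgfra by 1.37, Dcn by 1.2). The 6 primitive endoderm markers averaged 8.15 to 8.53 on the dedifferentiated arrays, 6.9 to 7.2 on the ES arrays and 7.04 to 7.23 on the fibroblast arrays, and 4 of 6 were higher than in ES cells (Sox17, Gata4, Sox7, Gata6). Smooth muscle markers had 2 of 6 higher (Cnn1 by 1.53, Myl9 by 1.46), and endothelial markers 1 of 7 (Cdh5 by 1.38). Without a minimum size, 6 of 6 primitive endoderm markers and 6 of 12 fibroblast markers passed the adjusted p, all of them higher. Over all genes 11.2% passed as higher. The smooth muscle and endothelial lists did not move as a whole. Of the smooth muscle list Acta2 differed by 0.81 and Des by -0.8, both under the size of a call. Tagln differed by -0.05 and Myh11 by -0.04. Of the endothelial list Tek differed by 0.94 and Kdr by 0.71, both under the size of a call. Pecam1 differed by -0.05, Vwf and Tie1 by -0.04 each and Emcn by 0.14, and the median of the 7 was 0.14. The part of these marker lists in the differences of Lef1, Wnt5a, Tcf7l1 and Tcf7l2 was not tested.

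**Figure D3:**
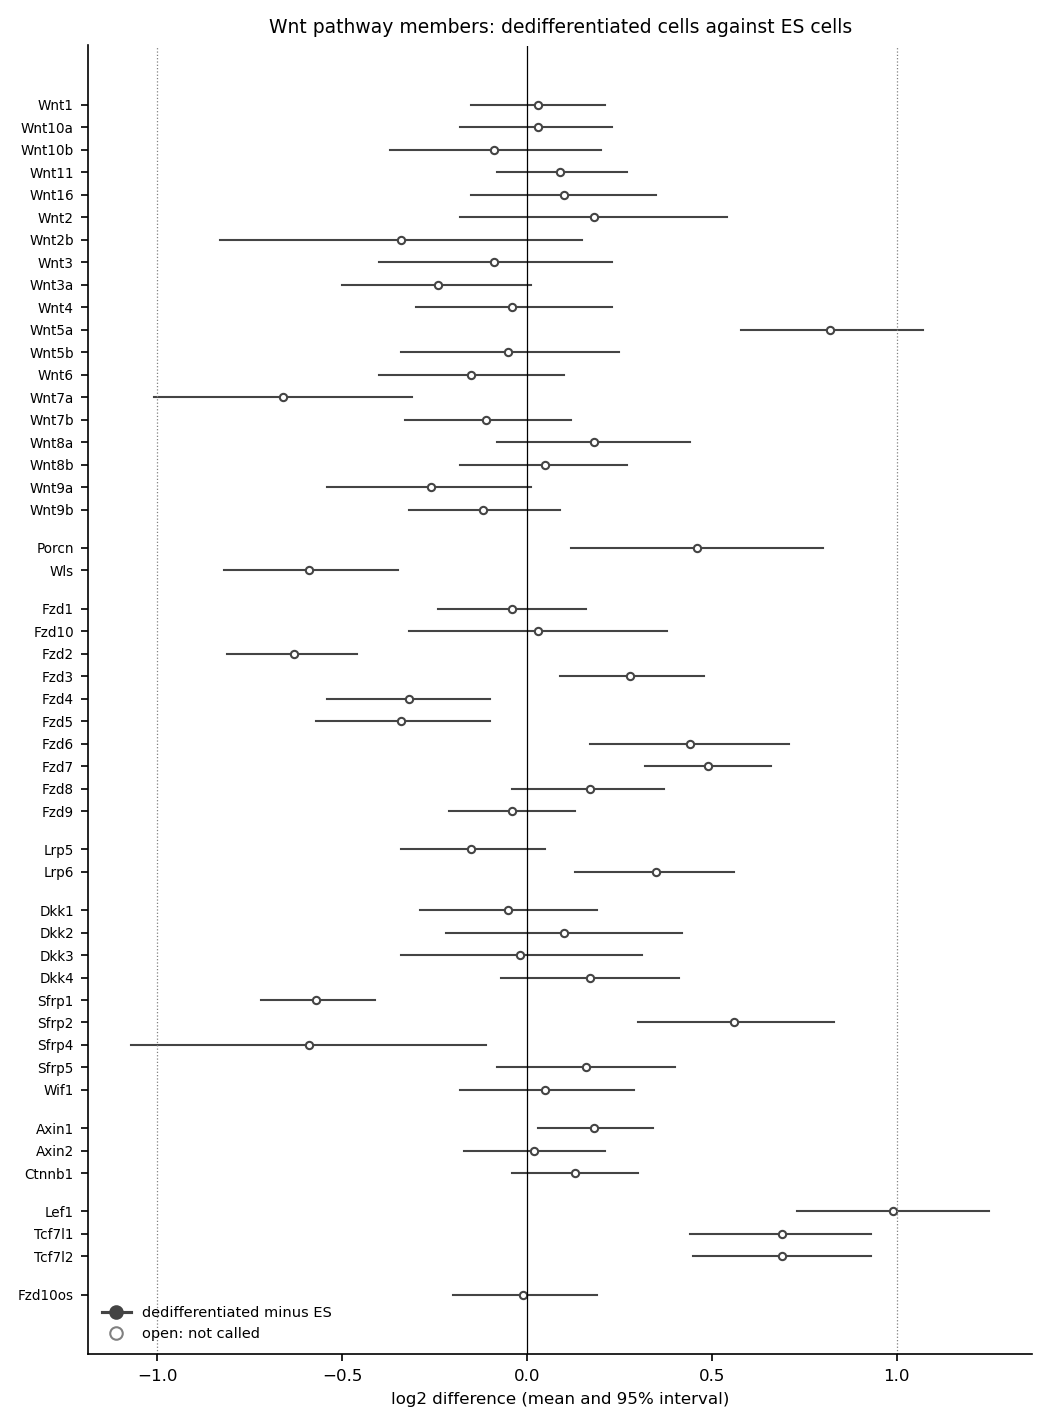
Log2 difference of dedifferentiated minus ES cells with its 95% interval for the 49 genes, grouped by role; open points were not called and dotted lines mark 1 log2 unit. Lef1 at 0.99 and Wnt5a at 0.82 lie furthest to the right and Wnt7a at -0.66 furthest to the left.

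Other genes of the pathway were taken from 6 lists with 132 measured genes. Of these, 18 were higher (all genes 8.79%) and 25 lower (all genes 10.1%) in dedifferentiated cells than in fibroblasts. In ES cells 16 were higher (all genes 8.85%) and 25 lower (all genes 10.4%). The same shares of all genes apply to the counts of each list. There were 8 higher and 1 lower in dedifferentiated against ES cells (all genes 1.01% and 0.547%). The median log2 difference was -0.03, -0.01 and -0.01 in these comparisons.

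Of 24 further receptors and regulators of receptor turnover, 2 were higher and 6 lower in dedifferentiated cells than in fibroblasts, as also in ES cells. Tspan12, a membrane protein that works with Fzd4 in norrin signalling, fell by 3.88 in dedifferentiated cells and fell by 4.2 in ES cells. Gpc3, a cell surface proteoglycan, rose by 3.48 and 3.71. Lgr4, a receptor for R-spondins, which raise Frizzled levels at the cell surface, rose by 2.93 in dedifferentiated and 1.91 in ES cells, and its difference of 1.02 between dedifferentiated and ES cells was called (limma adjusted p = 6.1e-05). Ror1, a co-receptor for Wnt5a, differed from fibroblasts by -1.75 in dedifferentiated cells (limma adjusted p = 2.4e-06) and by -2.6 in ES cells (adjusted p = 7.5e-08).

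Of 14 further genes listed as antagonists, 2 were higher and 3 lower in dedifferentiated cells, and 2 were higher and 4 lower in ES cells. Whether each listed gene blocks Wnt signalling in these cells was not tested. Frzb, a decoy of the Sfrp family that the name rule does not take in, fell by 4.43 in dedifferentiated cells and fell by 5.28 in ES cells. Igfbp4, an IGF-binding protein that can also block Wnt signalling, differed by -3.06 and -3.23. Both genes called higher were the same in the 2 comparisons: Tmem88 rose by 2.26 in dedifferentiated and 1.95 in ES cells, and Dkkl1 by 2.23 and 2.47.

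Within the cell, 3 of 25 relay genes were higher and 3 lower in dedifferentiated cells, and 3 were higher and 2 lower in ES cells. Nkd2, an inhibitor acting on Dishevelled, fell by 2.67 in dedifferentiated cells and fell by 2.54 in ES cells. Dact1, also a Dishevelled partner, differed by -1.56 and -1.47, and Dvl2, a Dishevelled protein, rose by 1.54 and 1.5 in the same comparisons.

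Of 19 nuclear cofactors, 5 were higher and 1 lower in dedifferentiated cells, and the 5 called in ES cells were all higher. Tle4, a Groucho corepressor, rose by 3.02 and 1.85, and dedifferentiated cells were above ES cells by 1.17 (adjusted p = 6.4e-06). Sox17, which can bind beta-catenin and is also a primitive endoderm marker, rose by 2.95 in dedifferentiated and 1.16 in ES cells against fibroblasts, and dedifferentiated cells were above ES cells by 1.79. The related Sox7 rose by 1.59 in dedifferentiated cells, which were above ES cells by 1.4, and its difference of 0.18 between ES cells and fibroblasts was not called. The acetyltransferase gene Ep300 rose by 1.52 in dedifferentiated and 1.22 in ES cells, and the corepressor gene Ctbp2 by 1.44 and 1.18. The short Groucho protein Tle5 fell by 1.6 in dedifferentiated cells and differed by -0.98, under the size of a call, in ES cells.

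Target genes did not share a direction. Of 29 common targets, 4 were higher and 7 lower in dedifferentiated cells than in fibroblasts, and 3 were higher and 9 lower in ES cells, with medians of -0.01 and 0. Ccn5 and Ccn4, matricellular proteins of connective tissue, differed by -5.46 and -4.18 in dedifferentiated cells, and by -5.57 and -4.3 in ES cells. Cd44, an adhesion receptor, differed by -3.01 in dedifferentiated and -4.29 in ES cells. Mycn, a growth regulator of early embryonic cells, rose by 3.32 and 2.7. Between dedifferentiated and ES cells Myc was higher by 2.31, the cell-cycle gene Ccnd1 by 1.41 and Cd44 by 1.27. The 1 gene called lower, named after its value was seen, was Jun at -1.26. Against fibroblasts Myc differed by -0.84, under the size of a call, in dedifferentiated cells and by -3.16 in ES cells. Ccnd1 rose by 1.47 in dedifferentiated cells and differed by 0.06, not called, in ES cells. Jun differed by -0.13, not called, in dedifferentiated cells and rose by 1.13 in ES cells. Other pathways also act on these genes, so the list is no reading of Wnt activity.

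Of 26 genes of the planar polarity and calcium branch, 2 were higher and 5 lower in dedifferentiated cells, and 1 was higher and 4 lower in ES cells. The polarity gene Prickle1 rose by 1.59 in dedifferentiated cells, which were above ES cells by 1.47; ES cells differed from fibroblasts by 0.12, which was not called. The kinase gene Prkca differed by -1.8 in dedifferentiated and -2.19 in ES cells, and the phospholipase gene Plcb4 by -1.69 and -1.89. The calcium-dependent kinase gene Camk2d fell by 1.6 in ES cells and differed by -0.92, under the size of a call, in dedifferentiated cells.

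**Figure D4:**
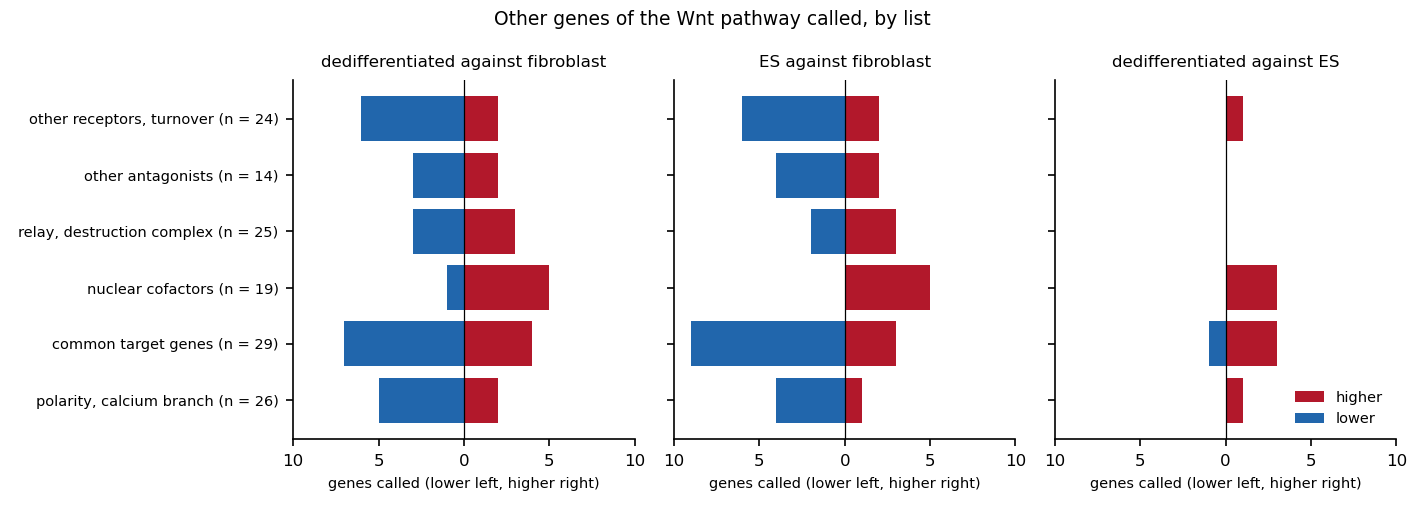
Number of genes called higher (red, right) and lower (blue, left) in the 6 lists of other Wnt pathway genes, for the 3 comparisons. Receptors, antagonists, targets and polarity genes have more falls than rises against fibroblasts, nuclear cofactors more rises (5 against 1 in dedifferentiated cells), and few genes were called between dedifferentiated and ES cells.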

How the data were processed

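The authors deposited log2 expression values, 35557 rows on 9 one-colour arrays, produced by RMA in Affymetrix Expression Console 1.1 per the submitters' processing notes. RMA quantile-normalizes the arrays, so a shift shared by all transcripts is lost, and it understates changes of dim genes. There is no detection call or depth, and the number of arrays limits the precision.

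The platform annotation gave 21789 rows 1 symbol; for a gene with several rows the row with the highest mean was used, leaving 19938 genes. Titles set the groups (the fibroblasts' source label mentions ES cells too). No 2 arrays were identical. One limma fit (limma 3.58.1, R 4.3.3) held all 9 arrays, with 95% intervals; a difference is the first group's mean minus the second's. The fit was tested on simulated data.

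The members and lists were chosen with earlier results of these data known. Array values are printed for members called in any comparison and for Ctnnb1, Porcn, Wls, Lrp5, Lrp6, Axin1 and Axin2. From each further list up to 3 called genes with the largest change per comparison are named. Their values are given for both comparisons with fibroblasts, and between dedifferentiated and ES cells only where called there. Jun was added after its value was seen. Wnt7a, Fzd7, Dkk1 and Sfrp4 were given array values after their values were seen. Promoter sequences come from RefSeq, build GRCm38.p6. Alternatives covered normalization, dim-gene filters, rows, variance models, array weights, samples in the fit, the replicate number as a block, each array left out, and other thresholds.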

Additional observations from a re-analysis of the deposited data

How the results depend on the processing

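At the stated thresholds, no called difference of the 49 genes lost its call or changed direction under an alternative that tested the gene (2772 of 2784 values for single genes kept their side of the threshold, and 12 passed it, for Sfrp4, Dkk1 and Lef1). With a filter on dim genes 22 or 24 of the 49 were tested, and Lef1 was left out by either filter. Leaving out each array gave 14 to 15 called genes in dedifferentiated cells against fibroblasts (10 to 11 lower, 4 higher each time), 11 to 12 in ES cells against fibroblasts (1 to 2 higher, 10 lower each time) and 0 to 1 between dedifferentiated and ES cells. That 1 gene was Lef1, also called higher after a second quantile normalization (1 gene) and with array weights (1 gene). With no minimum change, 22 genes (9 higher), 23 genes (9 higher) and 15 genes (9 higher, 6 lower) passed in the 3 comparisons; with a change of at least 2, 6 genes, all lower and 0 higher, passed in each comparison with fibroblasts, so the other called genes lost their calls. For the other pathway genes, 43, 41 and 9 were called, 85, 82 and 45 with no minimum change, and 17, 16 and 1 with at least 2; leaving out an array gave 40 to 45, 41 to 44 and 9 to 10. Centring arrays on their median gave a median of all genes of -0.11 (0.01 as deposited) in dedifferentiated and -0.1 (0.02) in ES cells against fibroblasts. Samples with the same replicate number did not deviate together (correlations -0.2 to 0.25, over 0.1 for 2 of 9 pairs), which gives no pairing; with the replicate block 14, 11 and 0 genes were called.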
